A study of Sus scrofa domesticus with 30 samples.

Results

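The genes described here are 10 genes of the microRNA (miRNA) pathway in the endometrium, the lining of the uterus, of 15 gilts (young female pigs). They were chosen by symbol, with no measured value in the rule, but with earlier results of these data known. They are 10 of 28224 gene models in the mRNA table: DROSHA, DGCR8, XPO5, DICER1, TARBP2, AGO1, AGO2, AGO3, AGO4 and LIN28A. The gilts were crossbred animals of Landrace, Yorkshire and Duroc genetics. The 2 groups were 7 gilts with a low and 8 with a high immunocrit (iCrit) in blood drawn on the first day of life, a measure of the immunoglobulin that a newborn piglet absorbed from colostrum. All of them were weaned, raised and fed alike, moved to a breeding area at 170 days of age, inseminated after at least 1 normal oestrous cycle and slaughtered on day 13 of pregnancy. Tissue was taken near the middle of the uterine horn, and the authors dropped 1 low iCrit animal because it carried no pregnancy. The study asked whether the adult, pregnant uterus differs with colostrum intake at birth. Each gilt gave 1 poly(A) mRNA library and 1 small-RNA library from the same RNA, so each replicate is a separate animal.

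A miRNA is cut from a long primary transcript in the nucleus by the Microprocessor, in which the RNase DROSHA is held by the RNA-binding protein DGCR8. The hairpin leaves the nucleus with exportin-5 (XPO5), is cut again by DICER1 with its partner TARBP2, and 1 strand is kept by an Argonaute protein (AGO1 to AGO4), which then silences mRNAs that pair with it. LIN28A holds back the maturation of let-7 miRNAs and is known from embryonic and germ cells, while let-7 is abundant in differentiated tissue.

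No member was called between low and high iCrit endometrium, but the log2 differences of AGO2 and DICER1 were the largest of the 9 members above the floor in every library. Both had higher values in low iCrit gilts, with all 7 low iCrit gilts above the high iCrit mean for each gene. For TARBP2, the partner of DICER1, all 7 lay below the high iCrit mean, which high iCrit replicate 7 (885) raised. The highest low iCrit value of TARBP2 (604.5) lay above the high iCrit median (594). limma, at a Benjamini-Hochberg adjusted p under 0.05 over 16819 tested genes, called 0 of the 10 members, and it called 0 of all genes (0%). At an unadjusted p under 0.05 it passed 2 of the 10, both higher in low iCrit gilts, against 1200 of all genes (7.13%), of which 455 (2.71%) were higher and 745 (4.43%) lower. Of the 10 members 8 had a higher and 2 a lower mean log2 value in low iCrit gilts, with a median difference of 0.12. By the exact permutation test, with 0 genes called after adjustment, 3 of the 10 (DICER1, TARBP2 and AGO2) had an unadjusted p under 0.05, against 7.86% of all genes. Over all genes tested 48.3% were higher and the median was -0.01. No member had groups free of overlap, as 12 of all genes did (0.0713%).

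Values are the authors' normalized expression values, on their own linear scale with a floor of 1, and differences are of log2(value + 1), low minus high. Levels of different genes are not compared, because the values are not per transcript length. In bulk tissue, fewer cells of a type and less RNA per cell cannot be told apart. The mRNA libraries held an estimated 14.6 to 31.7 M counted fragments (M, mega) in the low and 11.8 to 19.8 M in the high iCrit group (exact permutation p = 0.255). An earlier analysis of these data found 3 mRNA libraries apart, low iCrit replicate 2 and high iCrit replicates 7 and 8. High iCrit replicate 8 had a summed value of 9201 for 16 trophoblast markers, against 457 to 1024 in the other gilts. Low iCrit replicate 2 was lowest for epithelial markers (mean log2 deviation of -0.37), and low iCrit replicate 6 was highest for smooth muscle (1.10) and stromal fibroblast markers (0.82). Of the epithelial markers, 12 of 13 were above the floor somewhere, and KRT7 was at the floor in all libraries. Between the groups, 11 of 12 tested epithelial markers had lower means in low iCrit gilts (median log2 difference -0.16), while 11 of 12 stromal fibroblast markers (median 0.28, 3 at an unadjusted p under 0.05 by limma) and 9 of 10 endothelial markers (median 0.14) had higher means. None of them was called, and their part in the members' differences was not tested. AGO2 had an r of -0.21 with the epithelial, 0.22 with the stromal and 0.06 with the endothelial markers across the gilts, and DICER1 one of -0.57, 0.18 and -0.21.

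**Figure D1:**
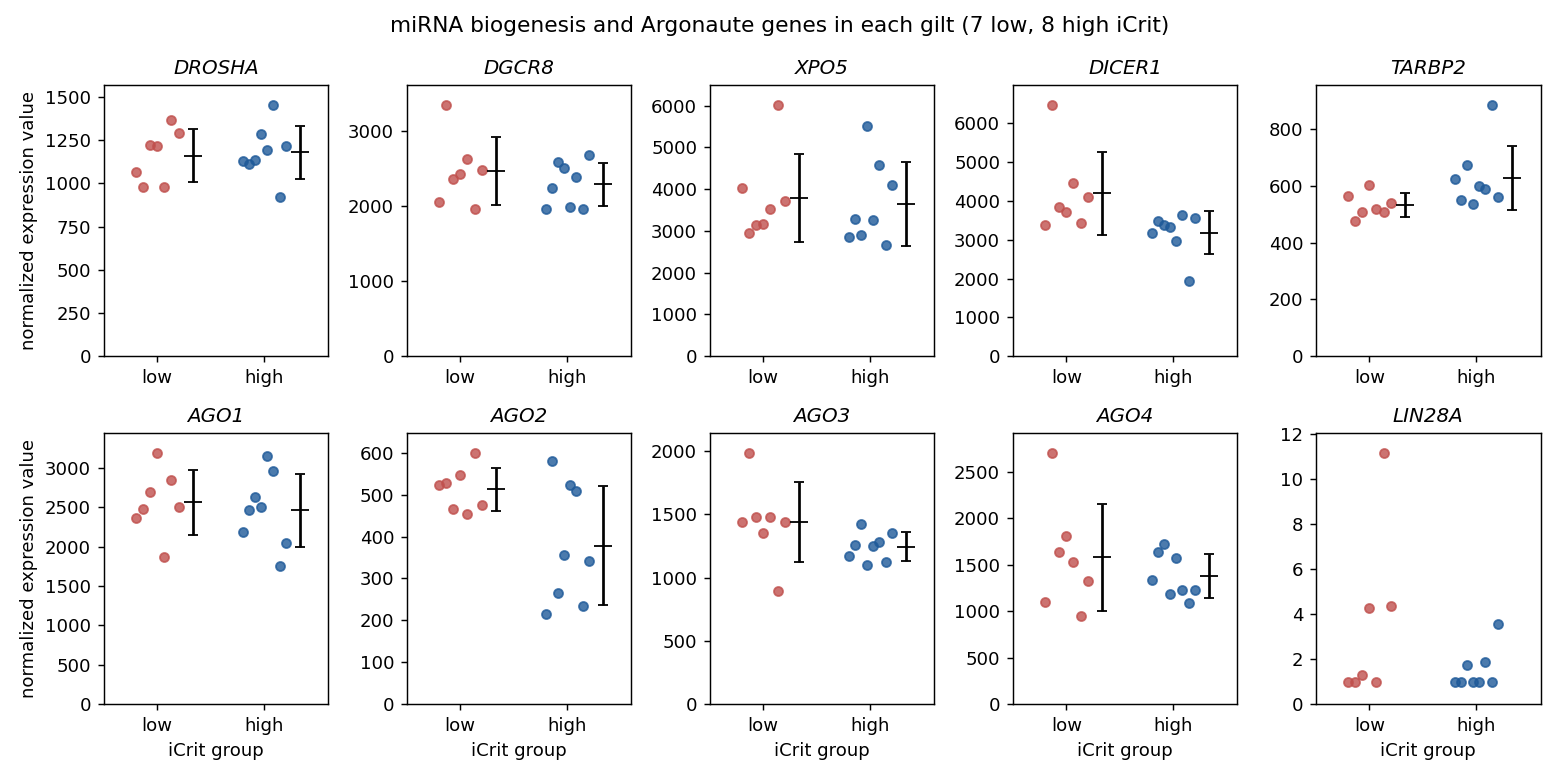
Normalized expression value (linear axis from 0, own scale per gene) of each gene in each gilt, with points for gilts of the low (red) and high (blue) iCrit groups and bars for the group mean ± SD (not drawn for LIN28A, which lies near the floor of 1). The low iCrit points of AGO2 lie between 453 and 599, while the high iCrit points run from 216 to 581.

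DROSHA, the nuclear RNase that makes the first cut (chromosome 16, 17727695 to 17847954, Sscrofa11.1), ran from 978 through a median of 1218 to 1369 in low iCrit gilts, and from 919 through 1164.5 to 1454 in the high iCrit group. The 2 ranges covered nearly the same span, and the lowest and the highest value both lay in the high iCrit group. Its log2 difference was -0.03 ± 0.11 (SE, 95% interval -0.25 to 0.20, limma adjusted p = 0.976). DGCR8, which binds the primary transcript and places DROSHA on it (chromosome 14, 51473512 to 51489535), ran from 1952 through 2418 to 3342 in the low and from 1963 through 2312 to 2673 in the high iCrit group. Only low iCrit replicate 2 stood above the high iCrit range. Its log2 difference was 0.10 ± 0.12 (SE, adjusted p = 0.894 by limma), and it was 0.02 without that gilt. The sign of the DROSHA difference turned without low iCrit replicate 2 or 5 or without high iCrit replicate 6 (range -0.08 to 0.02 when 1 library was left out), so no direction can be given for it.

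XPO5, the carrier of hairpins through the nuclear pore (chromosome 7, 38530704 to 38569558), ran from 2938.5 through 3527 to 6015 in the low and from 2659 through 3270.5 to 5511 in the high iCrit group. Low iCrit replicate 6 stood above all other gilts, and high iCrit replicates 4, 6 and 8 stood above the rest of their group. Its log2 difference was 0.06 ± 0.18 (SE, limma adjusted p = 0.962), and it was -0.06 without low iCrit replicate 6.

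DICER1, the RNase that cuts the hairpin to a duplex (chromosome 7, 116361630 to 116436471), ran from 3380.2 through 3837 to 6471 in the low and from 1933 through 3354.5 to 3638 in the high iCrit group. Of the 7 low iCrit gilts 5 lay above the highest high iCrit gilt, and 5 of the 8 high iCrit gilts lay below the lowest low iCrit gilt. The means were 4198 ± 1072 and 3182.5 ± 548 (SD, n = 7 and 8), and the log2 difference was 0.39 ± 0.15 (SE, 95% interval 0.07 to 0.71). limma gave an unadjusted p of 0.0213 and an adjusted p of 0.672, and the exact two-sided permutation test gave 0.00653, or 0.456 after adjustment over all genes. The highest value was that of low iCrit replicate 2 and the lowest that of high iCrit replicate 7, both among the libraries apart. Without the 3 libraries apart the difference was 0.19 ± 0.09 (SE, limma unadjusted p = 0.0484).

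TARBP2, the double-stranded RNA-binding partner of DICER1 (chromosome 5, 18718588 to 18723843), ran from 478 through 519 to 604.5 in the low and from 535 through 594 to 885 in the high iCrit group. All 7 low iCrit gilts lay below the high iCrit mean, though the ranges overlapped. High iCrit replicate 7 stood far above all others and raised that mean. Low iCrit replicate 4 (604.5) lay above the high iCrit median. The means were 531.5 ± 42.2 and 627.5 ± 113 (SD, n = 7 and 8), and the log2 difference was -0.23 ± 0.12 (SE, 95% interval -0.47 to 0.02). The adjusted p was 0.724 by limma and 0.544 by the exact permutation test (unadjusted 0.0690 and 0.0197). The difference was -0.15 when high iCrit replicate 7 was left out and -0.14 when the 3 libraries apart were.

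AGO2, the Argonaute that can itself cut a paired mRNA (chromosome 4, 2966794 to 3012388), stood at 453, 467, 475, 523, 528, 546 and 599 in the 7 low iCrit gilts. In the 8 high iCrit gilts it stood at 216, 234, 266, 342, 356, 509.6, 524 and 581. The low iCrit gilts lay close together, while the high iCrit gilts fell into 5 below every low iCrit gilt and 3 inside the low iCrit range. The coefficient of variation was 10.1% in the low and 37.5% in the high iCrit group. The means were 513 ± 51.8 and 378 ± 142 (SD, n = 7 and 8), and the log2 difference was 0.52 ± 0.21 (SE, 95% interval 0.08 to 0.97). limma gave an unadjusted p of 0.0240 and an adjusted p of 0.672, and the exact permutation test 0.0339 and 0.592. The difference was 0.42 to 0.62 when 1 library was left out and 0.41 without the 3 libraries apart (limma unadjusted p = 0.106). An estimated 76.0 to 508 counted fragments stood behind each AGO2 value.

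A property of the libraries moved with AGO2. For each library, the deviation of every gene from its mean was ranked against the length of its gene model in the genome, introns included; this measure was chosen after seeing the data. The rank correlation was 0.09 ± 0.08 in the low and -0.05 ± 0.13 in the high iCrit group (SD, n = 7 and 8, exact permutation p = 0.0269, unadjusted, 1 of 4 such measures), and it was above 0 in all 7 low iCrit gilts and in high iCrit replicates 2, 5 and 6. These 3 were the high iCrit gilts with AGO2 inside the low iCrit range, and the 5 below 0 were those with AGO2 below it. Across the 15 gilts AGO2 followed it with an r of 0.84, AGO1 with 0.74, DICER1 with 0.52 and TARBP2 with -0.61, given as a description. With this measure as a covariate, the log2 difference was 0.11 ± 0.18 for AGO2, 0.27 ± 0.18 for DICER1 and -0.12 ± 0.13 for TARBP2 (SE; unadjusted p by limma 0.559, 0.161 and 0.385). The measure itself differed between the groups, so its share and that of iCrit in these differences cannot be told apart.

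**Figure D2:**
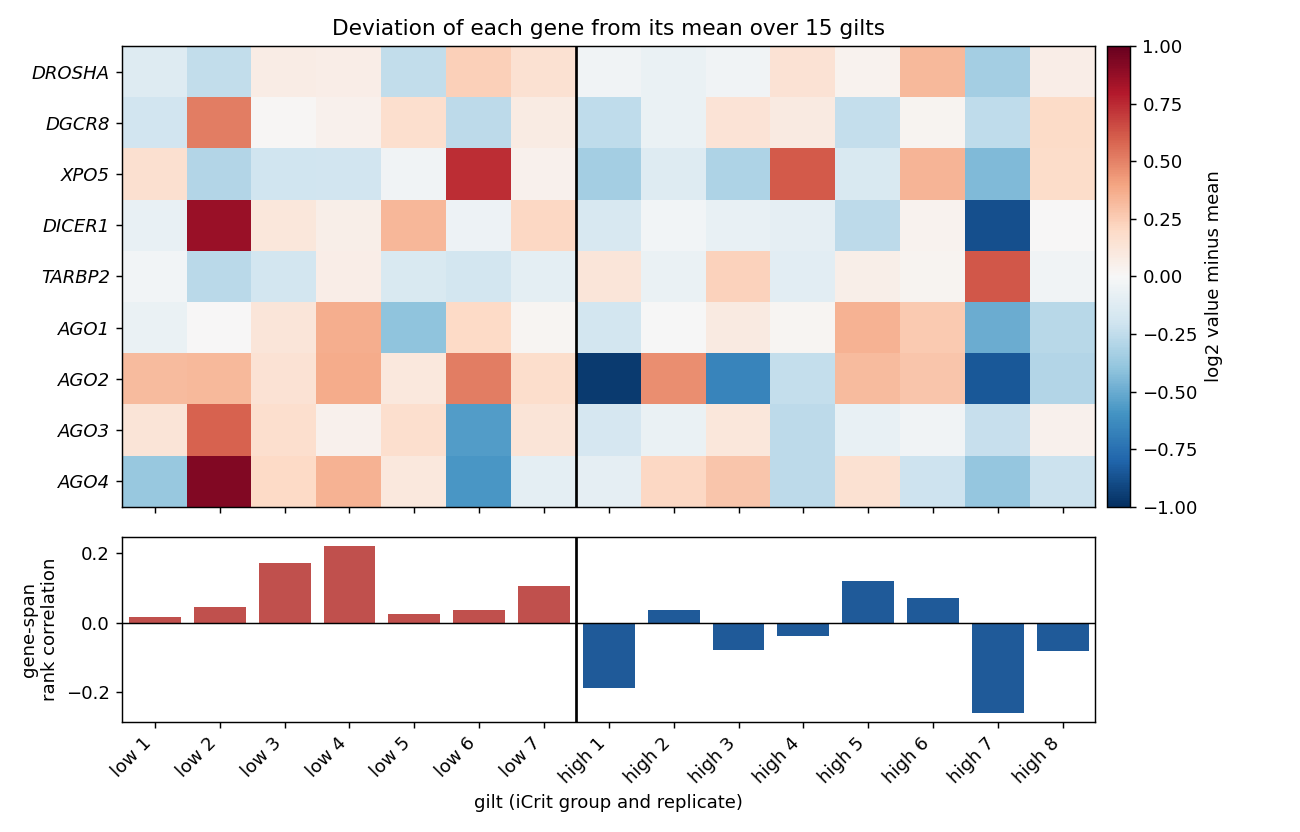
Colours show the log2 value of each of 9 genes (rows) minus its mean over the 15 gilts (columns, low iCrit left of the line), with LIN28A left out as it lies near the floor. Bars below give each library's gene-span rank correlation, above 0 in all 7 low iCrit gilts and 3 high iCrit gilts and lowest (-0.26) in high iCrit replicate 7.

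AGO4, AGO1 and AGO3 lie in that order on the plus strand of chromosome 6 within 258313 bases, from 91967499 to 92225811, with 25073 bases between AGO4 and AGO1 and 5285 between AGO1 and AGO3. A minus-strand gene model overlaps the start of AGO1 and another lies within AGO3, and the protocol in the labels names no step that keeps strand, so reads of such pairs cannot be told apart. AGO1 (92038104 to 92076477) ran from 1868.5 through 2500.0 to 3185 in the low and from 1754 through 2485 to 3151.5 in the high iCrit group. The ranges covered each other almost fully, and the log2 difference of 0.06 ± 0.13 (SE, limma adjusted p = 0.949) changed sign with the setting, to -0.0024 without high iCrit replicate 7, -0.05 without the 3 libraries apart and -0.21 with the gene-span covariate.

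AGO3 (92081763 to 92225811) ran from 893 through 1437 to 1982 in the low and from 1098 through 1252 to 1423 in the high iCrit group. Of the low iCrit gilts 5 lay above the highest high iCrit gilt, while low iCrit replicate 6 had the lowest value of all. Its log2 difference was 0.18 ± 0.13 (SE, limma adjusted p = 0.811), 0.10 when low iCrit replicate 2 and 0.29 when low iCrit replicate 6 was left out. AGO4 (91967499 to 92013030) ran from 953 through 1534.5 to 2702 in the low and from 1089 through 1284 to 1722 in the high iCrit group. The same 2 low iCrit gilts, replicates 2 and 6, were the highest and the lowest of all 15. Its log2 difference was 0.14 ± 0.19 (SE, adjusted p = 0.907 by limma), -0.0014 without low iCrit replicate 2 and -0.08 without the 3 libraries apart. The coefficient of variation of AGO4 was 36.6% in the low and 17.2% in the high iCrit group and that of AGO3 22.1% and 8.97%, the opposite order to AGO2; these spreads were not tested. Without low iCrit replicate 2 the low iCrit value of AGO4 was 23.5%. Without low iCrit replicates 2 and 6 it was 18.7% for AGO4, near the high iCrit value, and 3.55% for AGO3, below the high iCrit value.

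LIN28A, the let-7 blocker (chromosome 6, 83806178 to 83818550), was above the floor in 4 low and 3 high iCrit gilts, which is just enough libraries to be tested. Its values above the floor were 1.29, 4.30, 4.35 and 11.2 in the low and 1.73, 1.87 and 3.57 in the high iCrit group. They stand for an estimated 1 to 7 counted fragments in a library, so the depth limits any statement on it. Its log2 difference of 0.53 ± 0.39 (SE, limma adjusted p = 0.817) was 0.19 with a pseudocount of 10 and 0.23 without low iCrit replicate 6. LIN28B, its paralog, was above the floor in high iCrit replicate 8 alone, at 1.78.

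**Figure D3:**
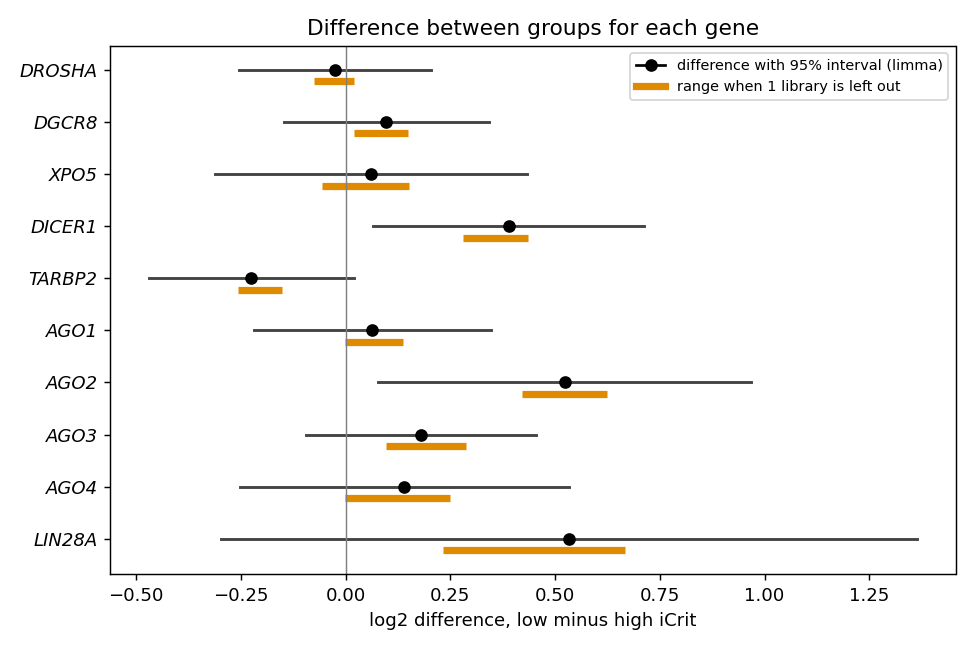
Log2 difference of each gene (rows), low minus high iCrit, with points and black lines for the limma estimate and its 95% interval (n = 7 and 8) and orange bars for the range when 1 library is left out. The intervals of DICER1 (0.07 to 0.71) and AGO2 (0.08 to 0.97) lie above 0 before adjustment, and the other 8 cross it.

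Across gilts, some members correlated with each other by Pearson, among them the partners DICER1 and TARBP2 with opposite sign. Of 36 pairs of the 9 members above the floor, 9 had an adjusted permutation p under 0.05 by Pearson, while the other 27 did not pass, and 0 passed by Spearman. The same 9 pairs (25.0%) had an absolute r of at least 0.66, a bound set just below the weakest of them, against 4.41% of all pairs of the 15159 genes above the floor in every library. The bound was chosen from the member pairs themselves, so the 2 shares are a description and not a test. Pairs share members and come from the same libraries with their depth and scaling. DICER1 and TARBP2 had r = -0.82 (adjusted permutation p = 0.00828) and rho = -0.65 (adjusted permutation p = 0.112). Without the gilts farthest from the DICER1 median, low iCrit replicate 2 and high iCrit replicate 7, r was -0.49, so the strength of this relation rests in part on those gilts. Within the groups r was -0.61 in the low (exact permutation p = 0.147) and -0.88 in the high iCrit group (exact permutation p = 0.0331). High iCrit replicate 7 had the lowest DICER1 (1933) and the highest TARBP2 value (885) of all gilts. The high iCrit r and its p thus rest in part on that gilt. Over both groups r was -0.64 when high iCrit replicate 7 alone was left out. Its group's r without it is not given, so no relation within the high iCrit group can be claimed. The library of high iCrit replicate 7 also had the fewest estimated fragments (11.8 M) and the lowest gene-span rank correlation (-0.26).

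DGCR8 and DICER1, which act at the nuclear and the cytoplasmic cut, had r = 0.78 (adjusted permutation p = 0.00828) and rho = 0.61 (adjusted permutation p = 0.112). Their r was 0.67 without the 2 farthest gilts, 0.96 within the low and 0.64 within the high iCrit group (exact permutation p = 0.000992 and 0.0271). DROSHA instead varied with XPO5 (r = 0.66, rho = 0.61, adjusted permutation p = 0.0310 and 0.112) and with AGO1 (r = 0.67, rho = 0.70, adjusted permutation p = 0.0310 and 0.0940). Without the 2 gilts farthest from the DROSHA median r was 0.66 with XPO5 and 0.39 with AGO1. The log2 estimated fragments had an r of 0.54 with DROSHA and 0.63 with AGO1; their part was not tested. Between DROSHA and DGCR8, the 2 proteins of the Microprocessor, r was -0.12 and rho -0.07 (unadjusted permutation p = 0.656 and 0.812). Within the groups r was -0.63 in the low (exact permutation p = 0.127) and 0.51 in the high iCrit group (exact permutation p = 0.207), and that difference was not tested.

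The remaining 5 pairs joined AGO3 with AGO4 (r = 0.78), DGCR8 with AGO3 (0.75) and with AGO4 (0.67), DICER1 with AGO3 (0.69) and TARBP2 with AGO2 (-0.67). Their adjusted permutation p by Pearson were 0.0124, 0.0149, 0.0310, 0.0400 and 0.0310 in that order, and rho was 0.52, 0.64, 0.44, 0.75 and -0.46 (adjusted permutation p 0.0673 to 0.301). Without the 2 farthest gilts r was 0.40, 0.47, 0.27, 0.48 and -0.38. With the gene-span measure taken out of both genes it was 0.75, 0.74, 0.65, 0.66 and -0.37. Within the low iCrit group r was 0.82, 0.84, 0.93, 0.76 and 0.11 in the same order, and within the high iCrit group 0.60, 0.54, 0.05, 0.52 and -0.61. DGCR8 with AGO4 thus had an r near 0 among high iCrit gilts, and TARBP2 with AGO2 one near 0 among low iCrit gilts. The number of pairs past the threshold was 0 without low iCrit replicate 2, 5 without low iCrit replicate 6 or high iCrit replicate 7, and 1 when the 3 libraries apart were taken out. Epithelial markers, lowest in low iCrit replicate 2, had an r of -0.77 with AGO4, -0.66 with AGO3 and -0.57 with DICER1, and without the 3 libraries apart -0.64, -0.44 and -0.16. Erythroid markers had an r of -0.61 with AGO4, -0.60 with DGCR8 and -0.58 with AGO3, and smooth muscle markers one of -0.58 with AGO3 (-0.71 without the 3 libraries apart). Other members had positive values. XPO5 had an r of 0.55 with epithelial, 0.46 with smooth muscle and 0.42 with erythroid markers, and DROSHA one of 0.51 with erythroid markers. Without the 3 libraries apart these were 0.72, 0.55, 0.43 and 0.57. The part of these markers in the relations was not tested.

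**Figure D4:**
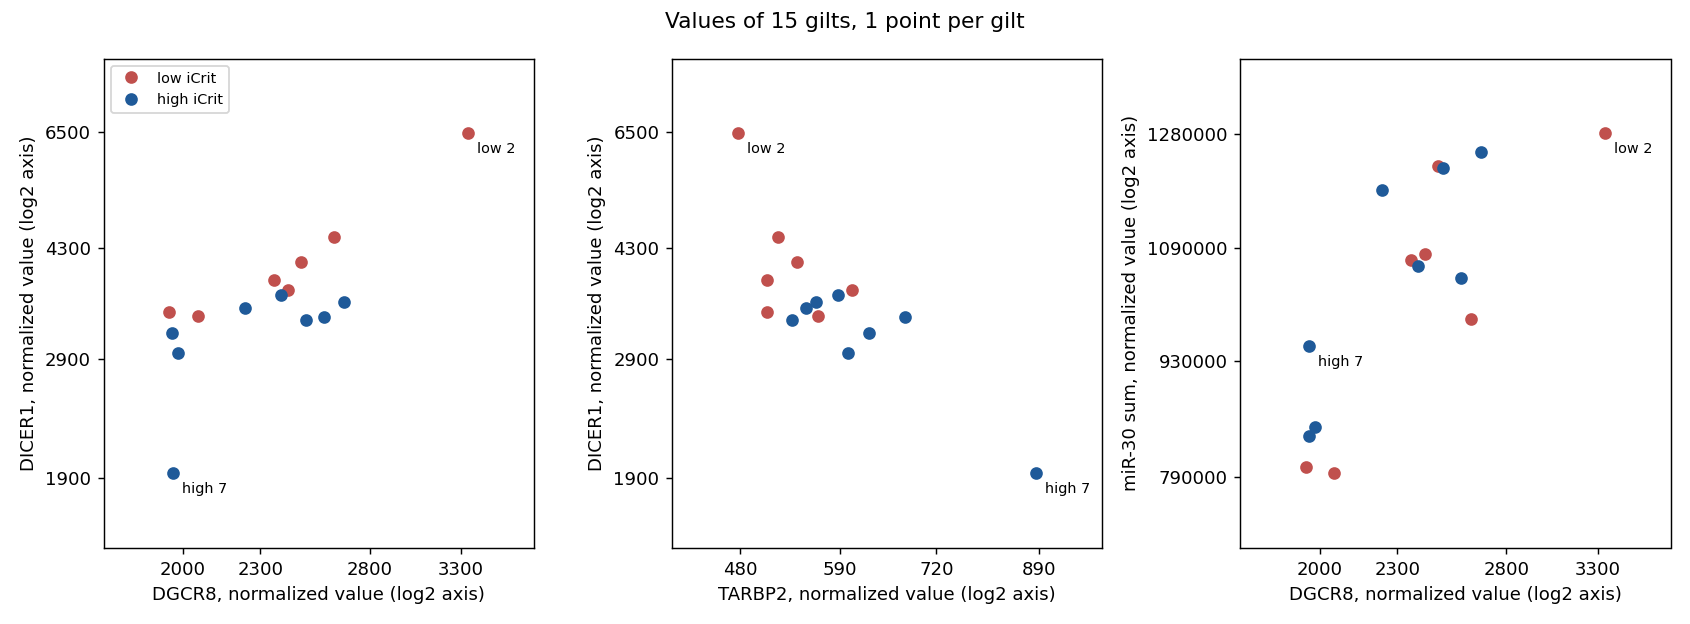
Normalized values of 15 gilts (1 point per gilt, log2 axes) for DICER1 against DGCR8, DICER1 against TARBP2, and the summed miR-30 family against DGCR8. Low iCrit replicate 2 and high iCrit replicate 7 lie at the ends of the DICER1 against TARBP2 plot, where r falls from -0.82 to -0.49 without them.

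The genes with a pattern most like 3 of the members over the 15 mRNA libraries, among 15141 genes, were found by Pearson r of log2 values and are given as a description. For DROSHA they were PLEKHG2, AMBRA1 and MED16 (r = 0.93, 0.93 and 0.92). For DICER1 they were CCDC81, GRK3 and UBQLN4 (0.92, 0.92 and 0.91), and for AGO2 IL13RA1, GNAQ and RAPGEF6 (0.95, 0.92 and 0.92). The neighbours of AGO2 on chromosome 4 had an r with it of 0.35 for PTK2, 0.17 for CHRAC1 and 0.34 for TRAPPC9.

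Other genes of the pathway were counted in lists written from textbook knowledge, and 0 of them were called by limma in any list. Of 20 partners of the Microprocessor 14 had higher and 6 lower means in low iCrit gilts (median 0.03), with 0 at an unadjusted p under 0.05. TARDBP and HNRNPA2B1, which bind primary miRNAs, differed by 0.15 ± 0.11 and 0.15 ± 0.13 (SE), and HNRNPA1 and ILF2 by -0.29 ± 0.21 and -0.10 ± 0.15. Of 11 partners of export and of DICER1, 8 were higher and 3 lower (median 0.04), with 0 at an unadjusted p under 0.05. Among them NUP153, of the nuclear pore basket, differed by 0.26 ± 0.12, PHAX, an export adaptor, by 0.12 ± 0.09, RANBP1 by -0.12 ± 0.15 and SND1, a RISC-associated nuclease, by -0.13 ± 0.20 (SE).

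Downstream of the Argonautes, 24 of 35 RISC partners and effectors were higher and 11 lower (median 0.06). At an unadjusted p under 0.05 by limma, 2 were higher and 1 lower, against 7.13% of all genes in either direction. CNOT1, the scaffold of the deadenylase that Argonautes recruit, stood at 10989 ± 1535 in the low and 9087 ± 1238 in the high iCrit group (SD, n = 7 and 8), apart by 0.27 ± 0.12 in log2 (SE, limma adjusted p = 0.682). DCP2, which removes the mRNA cap, differed by 0.22 ± 0.10, PABPC4, a poly(A)-binding protein, by -0.32 ± 0.14, and MOV10, a helicase bound to Argonautes, by -0.27 ± 0.14 (SE). Of 12 chaperones and import factors that load RISC 6 were higher and 6 lower (median -0.01). CDC37, a co-chaperone of HSP90, was the 1 gene of this list at an unadjusted p under 0.05, against 7.13% of all genes. It stood at 4057 ± 654 against 4789 ± 412 (SD), with a difference of -0.25 ± 0.10 on the log2 scale (SE, limma adjusted p = 0.672). DNAJA1, STIP1 and FKBP4, further co-chaperones, differed by 0.23 ± 0.15, 0.14 ± 0.15 and -0.30 ± 0.25 (SE).

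Of 14 tested genes of let-7 regulation, RNA tailing and decay 9 were higher and 5 lower (median 0.04), with 0 at an unadjusted p under 0.05. ZCCHC6, a terminal uridylyltransferase, differed by 0.16 ± 0.11, PAPD5, a poly(A) polymerase, by 0.24 ± 0.20, TUT1 by -0.14 ± 0.09, and DIS3L2, the nuclease that degrades uridylated let-7 precursors, by -0.19 ± 0.14 (SE). Of 12 tested genes of the PIWI pathway, which includes germline relatives of the Argonautes, 5 were higher and 7 lower (median -0.14). At an unadjusted p under 0.05 by limma there were 0. TDRD5 and PIWIL4 differed by 0.56 ± 0.33 and 0.69 ± 0.64, and TDRD1 and PIWIL3 by -0.57 ± 0.32 and -0.67 ± 0.46 (SE).

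The miRNA libraries of the same gilts gave no family sum past the threshold in the exact permutation test, adjusted over 10 sums. The summed value of all miRNA loci was 1.48e+07 ± 1.68e+06 in the low and 1.37e+07 ± 1.41e+06 in the high iCrit group (SD, n = 7 and 8, log2 difference 0.11, adjusted exact p = 0.507). The let-7 family, the group that LIN28A restrains, made up 27.4% of this sum over 11 loci and stood at 4.16e+06 ± 5.60e+05 against 3.67e+06 ± 3.62e+05 (log2 difference 0.17, exact p = 0.0615, adjusted exact p = 0.507). The 2 groups overlapped, with 5 of 7 low iCrit gilts above the high iCrit mean. Reads of identical mature miRNAs may be counted at each of their loci.

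Within let-7 the loci differed in size and sign. The locus of highest mean, let-7i, had a log2 difference of 0.26 ± 0.13 (SE), let-7e of 0.22 ± 0.09, and the let-7a locus on chromosome 9 of 0.06 ± 0.10. let-7d-3p, the other arm of the let-7d hairpin, stood at 1188 ± 66.8 in the low and 1499 ± 130 in the high iCrit group, with groups that did not overlap, as at 1 of 302 loci (0.331%). Its log2 difference was -0.33 ± 0.09 (SE, limma adjusted p = 0.392 over 302 loci, of which 0 (0%) were called and 21 (6.95%) had an unadjusted p under 0.05). let-7d-5p differed by -0.21 ± 0.10 (SE). Of 19 tested let-7 targets known from other species 12 were higher and 7 lower (median 0.10). At an unadjusted p under 0.05 by limma there was 1 in each direction, against 7.13% of all genes in either direction. CCND2, a cyclin, stood at 58.0 ± 14.3 against 31.0 ± 18.1 (SD, log2 difference 1.04 ± 0.34 SE), and CDC34, a ubiquitin-conjugating enzyme, differed by -0.29 ± 0.11 (SE, limma adjusted p = 0.672 for both). CCND1 differed by 0.41 ± 0.20 and HMGA1 by -0.27 ± 0.21 (SE).

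Families that bear on single steps did not pass the threshold either. miR-451, which is matured by AGO2 without DICER1, stood at 21006 ± 12343 in the low and 26735 ± 10987 in the high iCrit group (SD, log2 difference -0.41, adjusted exact p = 0.507). Without low iCrit replicate 7, the highest of its group, the difference was -0.64 (adjusted exact p = 0.193), and without high iCrit replicate 1 it was -0.27. It is abundant in red cells, so blood in the tissue bears on it, and of 5 erythroid genes 4 were lower in low iCrit gilts; their part was not tested. miR-320, which is made without DROSHA, differed by 0.04 (adjusted exact p = 0.819). The miR-103 family, which targets DICER1 in human cells, differed by -0.07, and miR-9 and miR-125 by 0.29 and -0.09 (adjusted exact p = 0.581, 0.507 and 0.554). The miR-9 difference was 0.17 without low iCrit replicate 6. The miR-30 and miR-17-92 families and miR-429 differed by -0.03, -0.05 and -0.13 (adjusted exact p = 0.840, 0.581 and 0.554).

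**Figure D5:**
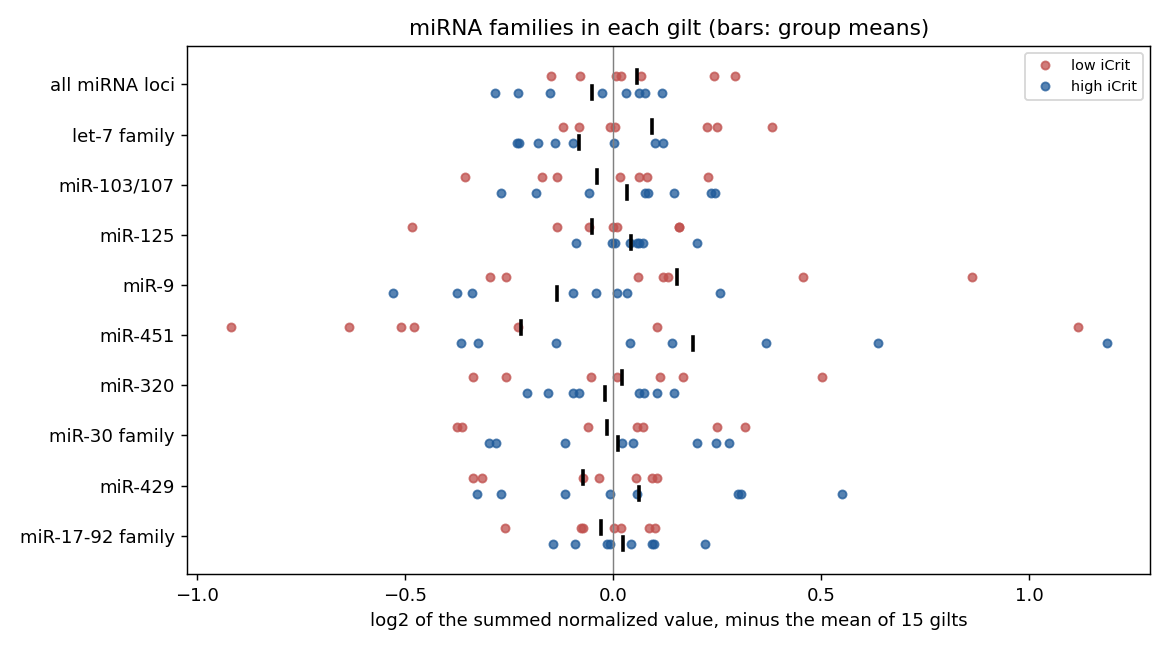
Log2 of the summed normalized value of each miRNA family (rows) minus its mean over 15 gilts, with red points for low and blue points for high iCrit gilts and black bars for group means. The groups overlap in each row, and the means of the let-7 family lie 0.17 apart.

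Across the 15 gilts, 1 of 99 pairs of a member with a miRNA measure had an adjusted p under 0.05, DGCR8 with the summed miR-30 family (miR-30a-5p the most abundant). Their r was 0.80 (adjusted permutation p = 0.0327) and rho 0.76 (adjusted permutation p = 0.149), with r = 0.75 without the 2 gilts farthest from the DGCR8 median. Within the groups r was 0.84 in the low and 0.83 in the high iCrit group (exact permutation p = 0.0151 and 0.0170), and it was 0.77 to 0.84 when 1 gilt was left out. The pair did not pass the adjusted threshold without low iCrit replicate 2 or 6, without high iCrit replicate 1, 5 or 6, or without the 3 libraries apart (r = 0.78). The share of all genes with such an r with the miR-30 sum is not given, so the relation cannot be called particular to DGCR8. DGCR8 also had an r of -0.60 with erythroid, -0.52 with endothelial and 0.39 with trophoblast markers, and their part was not tested. XPO5 with the sum of all loci had r = 0.53 and rho = 0.48 (adjusted permutation p = 0.459 and 0.455).

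The balance of the arms of a hairpin was the 1 added miRNA measure. For 48 hairpins with both arms in the table, the log2 ratio of the less to the more abundant arm was taken and its median computed per gilt, a measure chosen after seeing the data. It was -3.51 ± 0.08 in the low and -3.35 ± 0.09 in the high iCrit group (SD, n = 7 and 8), a difference of -0.16 (exact permutation p = 0.00373, not adjusted over the measures added). Of the 48 hairpins 31 had the lower ratio in low iCrit gilts and 17 the higher. The 17 hold miR-199a and miR-133a more than once, at different loci, and reads of identical mature miRNAs may be counted at each. The difference was -0.18 to -0.14 when 1 gilt was left out, -0.15 without the 3 libraries apart (exact permutation p = 0.0173), and -0.07 for the mean over hairpins. No member passed the threshold with this ratio. The r was -0.65 for AGO2, 0.56 for TARBP2 and -0.52 for DICER1 (adjusted permutation p = 0.413, 0.459 and 0.459), with rho -0.53, 0.55 and -0.64 (adjusted permutation p = 0.416, 0.416 and 0.400). AGO3 had r = -0.24 and rho = -0.55 (adjusted permutation p = 0.696 and 0.416). Without the 2 farthest gilts r was -0.48 for AGO2, 0.33 for TARBP2, -0.31 for DICER1 and -0.80 for AGO3. Within the low iCrit group r was -0.59 for AGO2, 0.06 for TARBP2, 0.36 for DICER1 and 0.43 for AGO3. Within the high iCrit group it was -0.48, 0.41, -0.69 and -0.80 in the same order. Those differences between the groups were not tested. The ratio itself differed between the groups, so an r over all gilts can hold part of that difference. The ratio also had an r of -0.50 with the gene-span rank correlation and of 0.10 with the log2 estimated miRNA reads.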

How the data were processed

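The authors deposited 1 table of normalized signal per assay, with 1 as the lowest value. The sources used here do not name an aligner, a counting tool, a scaling method or the build of the miRNA positions. Per the labels' protocols, reads were 50 bases and RNA integrity at least 7.5. Gene coordinates equalled Sscrofa11.1 for 27579 of 28224 gene models (97.7%), and all 10 members matched.

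The value of 1 counted fragment was taken from the commonest low value of a library. Low mRNA values were whole multiples of it (within 0.05) for 82.4 to 85.0%, so no count model was fitted. miRNA depth was 12.7 to 18.0 M reads (M, mega). Precision is the spread between gilts.

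Values were taken as log2(value + 1), and the 16819 genes above the floor in at least 7 of 15 libraries were fitted with limma 3.58.1 (R 4.3.3, intensity trend, no covariate), with Benjamini-Hochberg adjustment. Single sums used an exact permutation test over all 6435 splits, and correlations 100000 permutations, all two-sided. Other steps ran in Python 3.11.15 with pandas 2.3.3, numpy 2.4.6 and, for figures, matplotlib 3.10.9. The fit was tested on simulated data.

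The feeding label gave the groups, and the number in the titles joined the mRNA and miRNA data of a gilt. Replicate numbers only name a gilt. The members and lists were chosen with earlier results of these data known. Text names all members, the 2 smallest p in each direction of a list, the 3 genes most like DROSHA, DICER1 and AGO2, the top locus of a miRNA family, and loci and genes chosen after their values were seen (single let-7 loci, LIN28B, AGO2 neighbours). The alternatives were other pseudocounts, filters, scalings, weights, covariates and libraries left out. LIN28A was left out of correlations.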

Additional observations from a re-analysis of the deposited data

Results flagged for a closer look

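Dixon's criterion was applied to 46 groups of 7 or 8 gilts. They covered the 10 members, the miRNA sums and the arm ratio, each in both iCrit groups. The estimated mRNA fragments and the gene-span rank correlation were examined in the same way. In 7 groups 1 gilt lay far from the others. Chance meets the criterion in about 1 in 20 groups of independent, normally distributed values. The groups here share libraries and many LIN28A values lie at the floor, so the 7 cannot be set against that rate. Low iCrit replicate 2 had a DICER1 value of 6471 (next 4475), and high iCrit replicate 7 one of 1933 (next 2969.7). High iCrit replicate 7 also had a TARBP2 value of 885 (next 675). Low iCrit replicate 6 had an XPO5 value of 6015 (next 4034) and a LIN28A value of 11.2 (next 4.35). High iCrit replicate 8, the library with the trophoblast markers, had a LIN28A value of 3.57 (next 1.87). The miR-451 value of low iCrit replicate 7 was 47632 (next 23652).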

How the results depend on the processing

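No member and no listed gene was called by limma under any alternative fitted, libraries left out included, and DGCR8, DICER1, TARBP2, AGO2, AGO3 and LIN28A kept their sign. DROSHA was 0.0039 with quality weights and -0.096 with estimated reads as a covariate, XPO5 -0.0097 with the gene-span covariate, AGO4 -0.079 without the 3 libraries apart and -0.021 with that covariate, and AGO1 -0.039 with estimated reads as a covariate, -0.049 without the 3 libraries apart and -0.21 with the gene-span covariate. Leaving out 1 library gave DROSHA -0.075 to 0.019, XPO5 -0.057 to 0.15, AGO1 -0.0024 to 0.14 and AGO4 -0.0014 to 0.25. Over all genes, 663 had an unadjusted p under 0.05 with the gene-span covariate and 1985 with quality weights, against 1200. The split of higher and lower, 455 and 745, was 569 and 603 after median centring and 600 and 603 after quantile normalization. Centring the miRNA loci turned the miR-103 family to 0.012, miR-30 to 0.059 and miR-17-92 to 0.032; leaving out 1 gilt gave miR-30 -0.082 to 0.033 and miR-320 -0.041 to 0.10. Of all 36 member pairs, 9 passed, with 1 passing without the 3 libraries apart, 1 within low and 0 within high iCrit gilts, 6 with the gene-span measure taken out, and 0 to 10 without 1 gilt. Of all 99 pairs with a miRNA measure, 1 passed, with 0 passing without the 3 libraries apart and within either group, and 0 to 1 without 1 gilt; fewer gilts enter each. The cause of the other changes was not tested. No paired analysis was possible because the groups hold different gilts. Few counted fragments stand behind LIN28A.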
